A study of Rattus norvegicus with 10 samples.

Results

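A list of 40 cell cycle genes was followed in whole livers of 10 cirrhotic rats, and 37 of the 40 were measured, out of 14217 genes on the arrays. The members were listed by name, and each was read from the probe set that carried its symbol alone and varied most over the 10 arrays. Cdc6, which loads the replicative helicase, Rrm2, a subunit of ribonucleotide reductase, and Tpx2, a spindle assembly factor, had no such probe set, and both probe sets of Rrm2 also carried the symbol Rrm2l1. All rats were male Wistar rats in which cirrhosis had been induced with inhaled CCl4, a solvent that kills hepatocytes. In the CVX-060 group, 5 rats were given weekly tail vein injections of the Ang2 inhibitor CVX-060 (10 mg/kg) over 4 weeks, and in the vehicle group 5 rats were injected with vehicle. Each rat gave 1 Affymetrix rat expression array, hybridized with 150 ng of liver RNA, and every value below is a log2 signal already normalized between arrays. Uninjured liver was not analysed here, so the values compare cirrhotic livers with each other and do not measure how far division was raised by the injury. The age of the rats, the hour of killing and the interval since the last CCl4 exposure are not given in the labels.

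In the cell cycle, D and E cyclins with their kinases release E2F factors, which switch on the genes of DNA replication, while a later programme of cyclins A and B, Cdk1 and spindle proteins carries the cell through mitosis. The p53 target p21, encoded by Cdkn1a, and other CDK inhibitors hold these kinases back, and Wee1 delays mitosis by phosphorylating Cdk1. Hepatocytes of adult liver are mostly quiescent but divide again after injury, as do bile duct cells, stellate cells and macrophages. Whole-liver RNA mixes all of these, so that more dividing cells and more RNA per dividing cell cannot be told apart.

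The tissue carried its defining markers, with the albumin gene Alb at 14.77 to 14.81 in the 10 livers and 8 of 9 hepatocyte markers above background in every rat. A background level was set on each array as the 95th percentile of 20 probe sets for odorant, pheromone and trace amine receptors, and lay between 5.34 and 6.06. CVX-060 rat 5 and vehicle rat 2 stood apart on the first principal component of all genes (35.4% of the variance), with scores of 35.5 and 34.5, where the other 8 rats lay between -26.2 and 9.74. These livers also carried the sex-biased cytochrome P450 gene Cyp2c12 at 12.02 and 12.71 and the male-typical Cyp2c11 at 11.42 and 8.99. In the other 8 rats Cyp2c12 lay between 7.11 and 9.79 and Cyp2c11 between 12.69 and 13.93. Array weights from limma, which fall as an array departs from its group, were lowest for vehicle rat 2 (0.47) and CVX-060 rat 5 (0.55). The other 8 arrays had weights of 0.66 to 1.73. The paper kept only some replicates of each treatment after quality control and did not say which. Whether array quality set these livers apart was not tested. Counts and medians of the cell cycle lists are therefore also given without CVX-060 rat 5 and vehicle rat 2 where they moved.

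The mitosis genes varied together between rats, and the livers with the highest levels came from both groups. A score was formed for each rat as the mean, over the 19 measured genes of G2 and mitosis, of the log2 signal minus the mean of that gene over the 10 rats. The mitosis scores were 0.03, -0.21, -0.24, -0.30 and 1.11 in CVX-060 rats 1 to 5, against -0.44, 0.76, -0.19, -0.04 and -0.46 in vehicle rats 1 to 5. CVX-060 rat 5 and vehicle rat 2 had the highest scores, and the other 8 rats lay between -0.46 and 0.03. The scores averaged 0.08 ± 0.59 in CVX-060 livers and -0.08 ± 0.50 in vehicle livers (SD, n = 5 each), and -0.18 ± 0.14 against -0.29 ± 0.20 without these livers (SD, n = 4 each). The score of the 10 replication genes spread less, with -0.05, -0.12, -0.07, -0.11 and 0.30 in CVX-060 rats 1 to 5, against -0.14, 0.28, -0.08, 0.15 and -0.17 in vehicle rats 1 to 5. The same rats were again highest, although vehicle rat 4 came close.

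**Figure D1:**
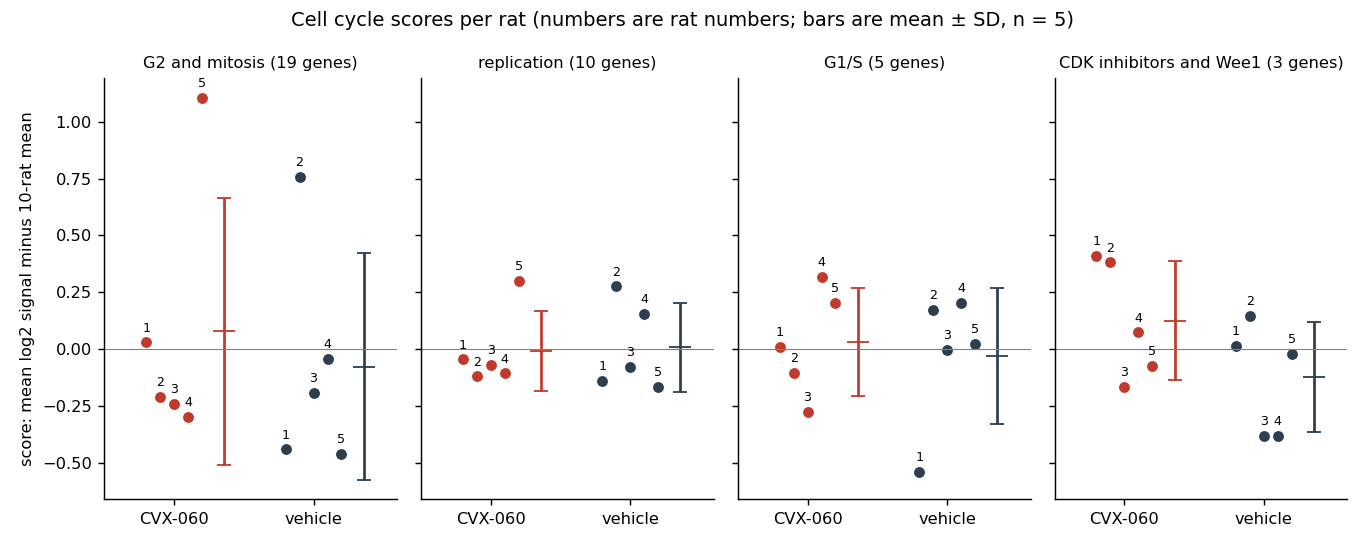
Scores of 4 groups of cell cycle genes in each rat, as the mean log2 signal of the group's genes minus their mean over the 10 rats, with CVX-060 livers left of vehicle livers in each panel. Points are rats with their numbers and bars are means ± SD (n = 5). The mitosis scores of CVX-060 rat 5 (1.11) and vehicle rat 2 (0.76) lie above all others, which end at 0.03.

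Among the markers of division, Mki67, which encodes the Ki-67 protein of cycling cells, had log2 signals of 4.59, 4.09, 3.88, 3.80 and 5.94 in CVX-060 rats 1 to 5, against 3.73, 5.64, 3.96, 4.31 and 3.58 in vehicle rats 1 to 5. Top2a, the topoisomerase that untangles replicated chromosomes, had 5.47, 5.15, 4.92, 4.97 and 6.42 in CVX-060 rats 1 to 5, against 4.70, 6.12, 5.20, 5.13 and 5.04 in vehicle rats 1 to 5. Cdk1, the kinase that drives entry into mitosis, had 5.54, 4.96, 4.88, 4.80 and 6.62 in CVX-060 rats 1 to 5, against 4.63, 6.56, 4.77, 5.10 and 4.46 in vehicle rats 1 to 5. In each of these genes CVX-060 rat 5 was highest, vehicle rat 2 came next, and the groups overlapped. Mki67 lay above background in CVX-060 rat 5 alone, and Top2a and Cdk1 in CVX-060 rat 5 and vehicle rat 2 alone, so that the size of these differences was not measured on both sides.

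Cyclin genes of the same phase repeated this order. Ccnb1, the B-type cyclin that activates Cdk1, had 5.11, 4.86, 5.17, 4.89 and 6.42 in CVX-060 rats 1 to 5, against 4.59, 6.22, 5.20, 4.92 and 4.67 in vehicle rats 1 to 5. Ccna2, the cyclin of S phase and G2, had 3.87, 3.75, 3.62, 3.46 and 5.93 in CVX-060 rats 1 to 5, against 3.19, 5.18, 3.76, 3.92 and 3.26 in vehicle rats 1 to 5. Cdkn3, a phosphatase that acts on CDKs and had the largest SD of all members, had 5.70, 5.30, 5.26, 4.87 and 8.13 in CVX-060 rats 1 to 5, against 4.45, 6.74, 5.73, 5.63 and 4.80 in vehicle rats 1 to 5. The 3 genes were highest in CVX-060 rat 5 and next highest in vehicle rat 2, and each other rat lay at least 1 log2 unit below both.

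Birc5, which encodes the mitotic inhibitor of apoptosis survivin, departed from the pattern, with 4.90, 4.71, 4.87, 5.38 and 5.93 in CVX-060 rats 1 to 5, against 4.53, 5.04, 4.75, 5.28 and 4.72 in vehicle rats 1 to 5. Here vehicle rat 2 was below CVX-060 rat 4 and vehicle rat 4. Plk1, a kinase of mitotic entry, was nearly flat (SD 0.10 over the 10 rats). Apart from Birc5 and Plk1, all mitosis members had CVX-060 rat 5 and vehicle rat 2 as their highest livers, which makes 17 of 19. Over all genes, 9.31% had these rats as the highest. By role, the 17 were the cyclins Ccna2, Ccnb1 and Ccnb2 with Cdk1 and Cdkn3, the anaphase factors Cdc20 and Ube2c, the Aurora kinases Aurka and Aurkb, the checkpoint kinases Bub1 and Bub1b, the spindle proteins Nusap1, Prc1, Kif11 and Kif20a, and Mki67 and Top2a.

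Against the median of the other rats of its group, CVX-060 rat 5 was higher in 19 of 19 mitosis members, by a median signal difference of 1.29. In vehicle rat 2 the same measure was positive in 19 of 19, with a median of 1.04. Most of these signals in the other rats lay below background, so that 1.29 and 1.04 are differences of recorded signal and not sizes of a change in RNA. The medians over all genes were 0.00 and -0.01. The replication genes had medians of 0.32 and 0.28, and the G1/S genes 0.05 and 0.05, so that of these 3 lists the mitosis genes had the highest median in both livers.

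**Figure D2:**
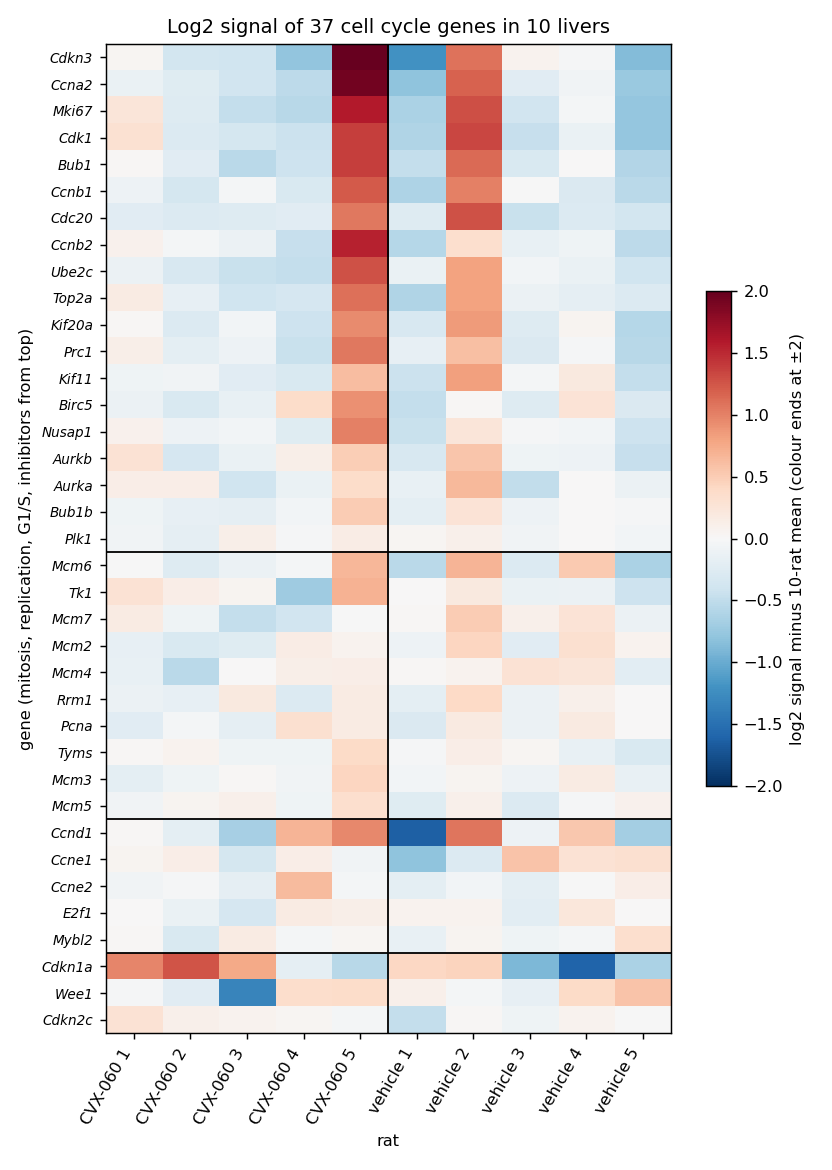
Log2 signal of the 37 measured cell cycle genes in the 10 livers, minus the mean of each gene over the 10 rats, with CVX-060 rats left of vehicle rats and genes ordered by SD within each group. The columns of CVX-060 rat 5 and vehicle rat 2 are red through nearly all mitosis genes, and Cdkn1a in the lowest block has another pattern.

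In most livers the mitosis genes lay near the floor of the arrays. Of the 19 mitosis members, Plk1 and Prc1, which bundles spindle microtubules, lay above background in all 10 rats, and 14 lay above it only in CVX-060 rat 5, in vehicle rat 2 or in both. Aurkb and Bub1b lay above it in no rat, and Nusap1 in 7 rats. Counted by liver, 17 mitosis members were above background in CVX-060 rat 5, 12 in vehicle rat 2 and 2 or 3 in each other rat. The background level of CVX-060 rat 5 was the lowest of all, and 66.9% of all genes lay above it there, against 56.6% to 61.1% in the other rats. Over all 37 members, 11 were above background in every rat, 22 in some and 4 in none. Because probe sets bind with unequal strength, a gene under that level may still be expressed. With only 20 receptor probe sets the level depended on the percentile, with a median over arrays of 5.87 at the 95th and 4.66 at the 90th. Of the 19 mitosis members 6 lay above background in all 10 rats at the 90th percentile and 0 at the 99th. At the 90th Top2a lay above it in 8 rats, Cdk1 in 7 and Mki67 in 2.

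The likeness between members of the mitosis list is given as a description over 10 points that share array and normalization. Pearson's r of each member with the mean of the remaining members had a median of 0.95 (0.61 to 0.99) over 10 rats. Over the 8 rats without CVX-060 rat 5 and vehicle rat 2 the median was 0.76 (-0.19 to 0.95), with r of 0.95 for Mki67, 0.94 for Ccna2 and 0.92 for Cdk1 but 0.21 for Cdc20. The replication members had medians of 0.54 and 0.24 in the same order.

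Outside the list, 187 genes (1.32%) had an r above 0.9 with the mitosis score over the 10 rats. The 10 most alike were Racgap1 (0.99), Heph, Pclaf, Pcdh17, Ifi30, Arpc3, Depdc1, Ect2, Clic1 and Bex3 (0.98). Racgap1, a GTPase activator of the central spindle, had 5.40, 5.01, 5.04, 5.07 and 6.74 in CVX-060 rats 1 to 5, against 4.81, 6.41, 5.26, 5.34 and 4.87 in vehicle rats 1 to 5. Of 38 further measured mitosis genes that are not members, 23 had CVX-060 rat 5 and vehicle rat 2 as their highest livers, and of 30 further replication genes 6 did.

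Markers of other liver cells moved with the mitosis score in part. The score of 7 cholangiocyte markers, which line bile ducts, was 0.19, -0.25, -0.59, 0.15 and 0.69 in CVX-060 rats 1 to 5, against -0.67, 0.60, 0.04, 0.39 and -0.55 in vehicle rats 1 to 5. It was highest in the same livers, and Epcam, an adhesion protein of bile duct and progenitor cells, reached 8.14, 8.04, 7.56, 8.75 and 9.68 in CVX-060 rats 1 to 5, against 7.11, 9.59, 8.79, 8.90 and 6.92 in vehicle rats 1 to 5. Of these 7 markers 4 had CVX-060 rat 5 and vehicle rat 2 as their highest livers, Krt7 and Cldn4 lay above background in no rat, and the list averaged over its genes ranged from 5.18 to 6.46 per gene in CVX-060 livers and from 5.10 to 6.37 in vehicle livers. The 11 macrophage markers averaged 9.03 to 9.91 in CVX-060 livers and 9.11 to 9.58 in vehicle livers, with CVX-060 rat 5 highest and vehicle rat 2 behind CVX-060 rat 2. Stellate cell markers averaged 8.09 in CVX-060 rat 5 and 7.99 in vehicle rat 2, against 7.34 to 7.91 in the other rats. Of these 11 markers 3 had these rats as the highest. Against the median of the other rats of the group, single stellate markers ranged from -0.97 to 1.49 and from -0.96 to 1.22. The 9 hepatocyte markers averaged 11.80 in CVX-060 rat 5, inside the 11.77 to 11.99 of the other rats, and 11.65 in vehicle rat 2. Measured in the same way their median difference was -0.04 and -0.09, and in vehicle rat 2 they ranged from -1.35 to 1.03. The part of these cell types in the mitosis scores was not tested.

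Promoter sequences were set beside these levels because the mitosis genes moved together while the replication genes did so less. Late cell cycle genes are known to carry a CHR element next to CCAAT boxes, and replication genes E2F sites. RefSeq promoters of the GRCr8 build, from 250 bases before to 50 after the annotated start, were found for 29 of the 37 measured members, with none for Ccna2, Ccnd1, Ccne2, Aurkb, Ube2c, Mcm4, E2f1 and Wee1. The letters searched on both strands were TTTGAA for the CHR, CCAAT for the box of that name, for E2F sites TTGGCGC or TTCCCGC or TTCGCGC, whose matches may overlap, and for the E-box of clock factors CACGTG. Members were counted as genes, with a match in any promoter of the gene, whereas the share over all 33469 counts single promoters. The shares are thus not counted alike. The CHR letters stood in 11 of 16 mitosis genes (68.8%), against 18.3% of all 33469 promoters, and CCAAT in 13 of 16 (81.2%), against 37.5%. Both stood in 10 of 16 (62.5%), against 7.41% of all promoters. E2F letters stood in 7 of 9 replication genes (77.8%) and in 2 of 16 mitosis genes (12.5%), against 7.52% of all promoters. These matches describe letters and do not show that a factor binds in these livers.

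The 200 bases before the start of 4 members are printed, 5′ to 3′ on the strand of the gene, with matched letters in capitals. Ccnb2 was chosen because its CCAAT boxes stand at an even spacing of 33 bases, the last of them at -68, before a CHR at -43.
Ccnb2, chr8:79981659-79981858, minus strand: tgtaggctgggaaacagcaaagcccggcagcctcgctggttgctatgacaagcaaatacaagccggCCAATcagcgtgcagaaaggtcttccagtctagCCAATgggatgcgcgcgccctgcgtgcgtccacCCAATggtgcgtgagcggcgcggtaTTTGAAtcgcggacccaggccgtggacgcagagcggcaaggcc
Mki67, for its CHR elements at -117 and -99 amid 4 CCAAT boxes, chr1:199952594-199952793, minus strand: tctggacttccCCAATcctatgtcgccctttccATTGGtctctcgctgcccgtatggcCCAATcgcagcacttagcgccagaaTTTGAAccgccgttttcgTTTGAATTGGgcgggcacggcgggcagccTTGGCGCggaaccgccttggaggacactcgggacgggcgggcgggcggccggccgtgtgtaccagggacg
Cdk1, which holds CHR, CCAAT and E2F letters at once, chr20:19265093-19265292, plus strand: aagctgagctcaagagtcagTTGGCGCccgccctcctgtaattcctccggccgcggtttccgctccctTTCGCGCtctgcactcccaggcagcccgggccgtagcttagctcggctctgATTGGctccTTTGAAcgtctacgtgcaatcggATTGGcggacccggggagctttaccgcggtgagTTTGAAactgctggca
Mcm6, the replication member closest to the mitosis pattern, with paired E2F letters and no CHR, chr13:42404353-42404552, minus strand: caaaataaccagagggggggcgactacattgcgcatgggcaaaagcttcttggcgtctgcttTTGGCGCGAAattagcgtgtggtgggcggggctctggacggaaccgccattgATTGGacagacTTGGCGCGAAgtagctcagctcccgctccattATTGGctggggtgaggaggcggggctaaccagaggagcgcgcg

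**Figure D3:**
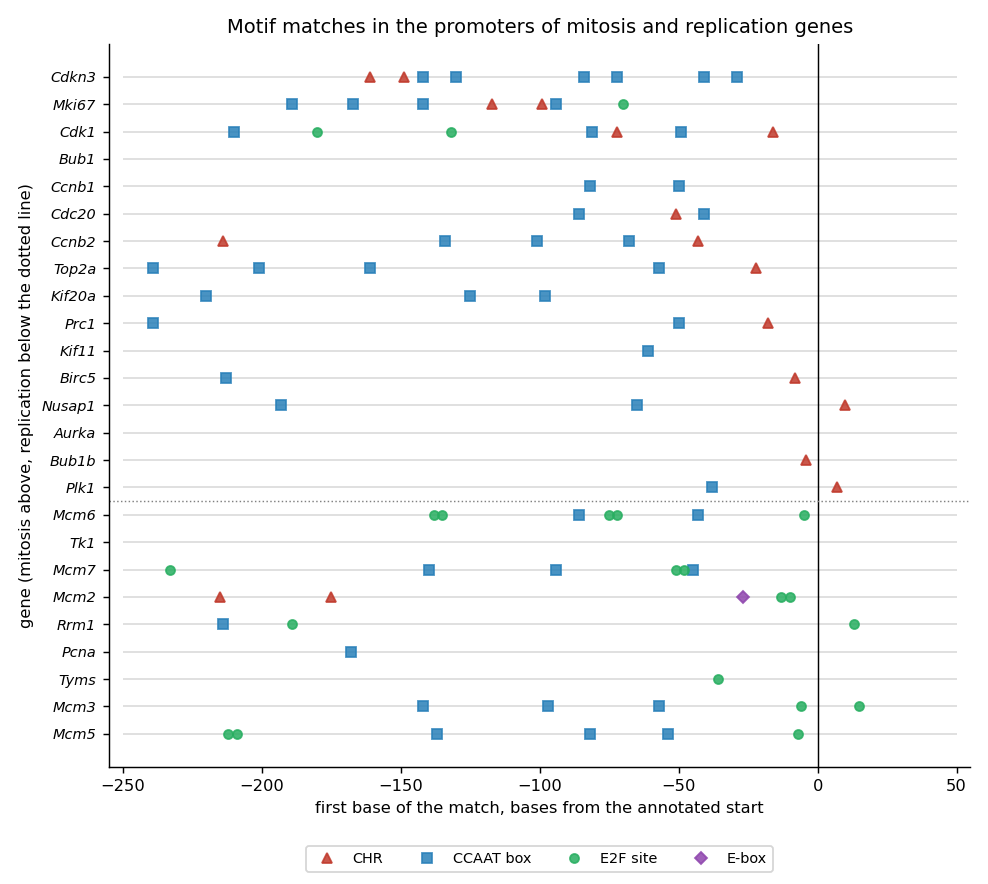
Positions of motif matches in the promoters of 16 mitosis genes (above the dotted line) and 9 replication genes (below it), as bases from the annotated start at 0. CHR letters stand in a promoter of 11 of 16 mitosis genes and 1 of 9 replication genes, and E2F letters in 2 of 16 and 7 of 9.

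Replication genes were steadier between rats. Pcna, the sliding clamp of DNA polymerases, had 9.87, 10.07, 9.93, 10.43 and 10.27 in CVX-060 rats 1 to 5, against 9.82, 10.28, 9.98, 10.29 and 10.12 in vehicle rats 1 to 5. Mcm6, a subunit of the replicative helicase, had 5.71, 5.46, 5.60, 5.67 and 6.38 in CVX-060 rats 1 to 5, against 5.18, 6.39, 5.44, 6.23 and 5.08 in vehicle rats 1 to 5. Of the replication members Mcm6 alone had an r above 0.9 with the rest of its list, and both CVX-060 rat 5 and vehicle rat 2 were at its top together with vehicle rat 4. Mcm5 and Tyms, the thymidylate synthase gene, also had these livers as their highest, which makes 3 of 10 against the 9.31% over all genes. Tk1, the thymidine kinase of the salvage pathway, was highest in CVX-060 rat 5 (7.40) and lowest in CVX-060 rat 4. Mcm3, Mcm4 and Rrm1, the large subunit of ribonucleotide reductase, spanned at most 0.83 between their lowest and highest rat. Above background in all 10 rats lay Pcna, Mcm4, Mcm7, Rrm1 and Tk1, and Tyms in none.

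Of the G1/S genes, Ccnd1, the cyclin that couples growth signals to the cycle, spread most, with 9.62, 9.40, 8.95, 10.29 and 10.56 in CVX-060 rats 1 to 5, against 7.96, 10.68, 9.51, 10.14 and 8.92 in vehicle rats 1 to 5. It was highest in vehicle rat 2 and CVX-060 rat 5 and lowest in vehicle rat 1, and lay above background in every rat. Ccne1, the cyclin that starts S phase, had 5.83, 5.92, 5.43, 5.93 and 5.72 in CVX-060 rats 1 to 5, against 4.97, 5.51, 6.36, 6.08 and 6.10 in vehicle rats 1 to 5, and vehicle rat 1 was again lowest. Ccne2 ranged from 5.50 to 6.33, the replication activator E2f1 from 5.04 to 5.62 and Mybl2, a factor of late cell cycle genes, from 4.38 to 5.01, and Mybl2 lay above background in no rat.

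CVX-060 was compared with vehicle to ask whether Ang2 inhibition altered the cell cycle genes. With Benjamini-Hochberg adjustment in limma, 0 of 37 members and 0 of 14217 genes were called at an adjusted p under 0.05 (0.0% of all genes), and the lowest adjusted p of any gene was 0.999973. At an unadjusted p under 0.05 there were 0 members, against 2.44% of all genes, and 0 members had groups that did not overlap, against 0.485% of all genes. The mean was higher in CVX-060 livers for 26 of 37 members, against 52.6% of all genes, and the median difference, CVX-060 minus vehicle, was 0.10 for the members and 0.01 for all genes. Among mitosis genes 16 of 19 were higher, with a median of 0.17 (-0.03 to 0.40). Replication genes split 6 against 4, with a median of 0.02, and G1/S genes 2 against 3, with a median of -0.04.

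These shares of signs rested on single livers. Without CVX-060 rat 5 the differences of 15 of the 37 members changed sign, the mitosis median became -0.11 and only 11 members were higher, and without vehicle rat 2 the mitosis median was 0.35. With both left out, 25 of 37 were higher, against 52.4% of all genes, and the mitosis median was 0.12. Replication genes then split 5 against 5, with a median of -0.01. With all rats the intervals were wide, at -0.99 to 1.76 for Cdkn3 and -0.84 to 1.27 for Mki67. Differences within these bounds were thus not excluded with 5 rats per group.

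**Figure D4:**
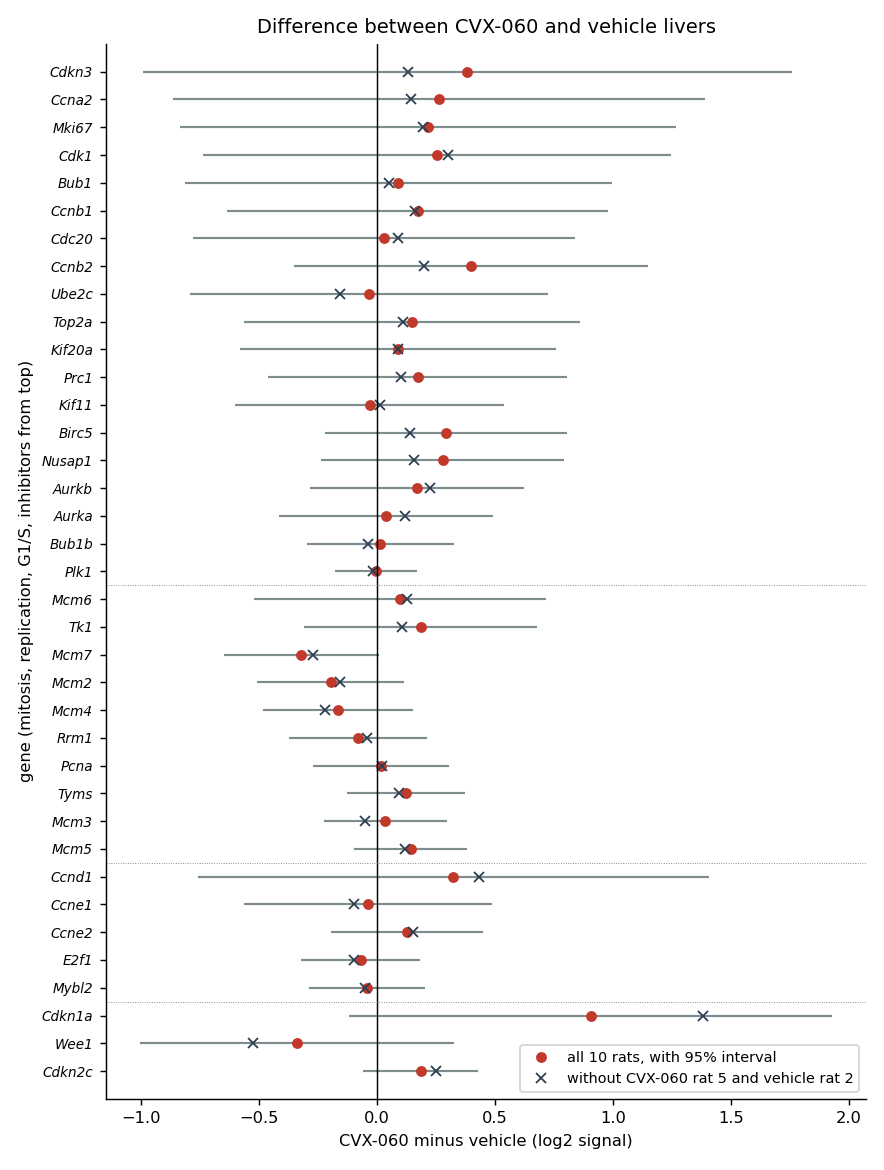
CVX-060 minus vehicle in log2 signal for each of the 37 measured members, with the 95% interval from limma (points and lines), and the difference without CVX-060 rat 5 and vehicle rat 2 (crosses). Every interval includes 0, and the widest is that of Cdkn3.

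The smallest p among members belonged to Mcm7, another helicase subunit. It had 8.82, 8.57, 8.17, 8.27 and 8.64 in CVX-060 rats 1 to 5, against 8.68, 9.17, 8.77, 8.93 and 8.55 in vehicle rats 1 to 5, a difference of -0.32 (95% interval -0.65 to 0.01). The groups overlapped, with an unadjusted p of 0.0549 from limma and of 0.0952 from an exact permutation test of both sides. Mcm2, also of the helicase, had 5.84, 5.70, 5.77, 6.15 and 6.07 in CVX-060 rats 1 to 5, against 5.90, 6.44, 5.78, 6.32 and 6.08 in vehicle rats 1 to 5, with a difference of -0.20 (exact permutation p = 0.214). Mcm5 had 6.05, 6.17, 6.21, 6.03 and 6.45 in CVX-060 rats 1 to 5, against 5.86, 6.22, 5.85, 6.09 and 6.19 in vehicle rats 1 to 5, with a difference of 0.14 (exact permutation p = 0.262). The helicase subunits thus differed in sign, with Mcm2, Mcm4 and Mcm7 lower and Mcm3, Mcm5 and Mcm6 higher in CVX-060 livers, none passed the test, and Mcm3 and Mcm6 changed sign without CVX-060 rat 5. Birc5 differed by 0.29 (exact permutation p = 0.317).

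Further genes of each phase showed no call either. Of 30 other replication genes 12 were higher and 18 lower, of 38 other mitosis genes 24 and 14, and of 20 other G1 regulators 9 and 11. Without CVX-060 rat 5 and vehicle rat 2 these became 10 and 20, 24 and 14, and 6 and 14. With all rats in the fit, an unadjusted p under 0.05 was reached by Pold1 and Cdk2, both lower in CVX-060 livers. At that level 1.17% of all genes were lower and 1.27% higher. Pold1, the catalytic subunit of DNA polymerase delta, differed by -0.22 (exact permutation p = 0.0317), and Cdk2, the partner of E and A cyclins, by -0.23 (exact permutation p = 0.0556). Next in order of p came the clamp loader gene Rfc5 (-0.13) and the dUTPase gene Dut (0.22), then Cdca2 (-0.19), Pbk (0.29) and Cdca8 (0.22) of mitosis, and Rb1 (-0.34) and Cdk7 (-0.18) of G1.

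Of the genes that hold the cycle back, Cdkn1a spread most. It had 9.71, 10.01, 9.51, 8.56 and 8.19 in CVX-060 rats 1 to 5, against 9.16, 9.19, 7.85, 7.14 and 8.12 in vehicle rats 1 to 5, all of them above background. CVX-060 rats 1, 2 and 3 lay above every vehicle rat and CVX-060 rats 4 and 5 among them, with a mean of 9.20 ± 0.78 in CVX-060 livers and 8.29 ± 0.88 in vehicle livers (SD, n = 5 each). The difference of 0.91 (95% interval -0.12 to 1.93) did not pass the test, with an unadjusted limma p of 0.0773 and an exact permutation p of 0.127. The size depended on the setting, at 1.41 with array weights and 0.37 for the other Cdkn1a probe set. The unadjusted limma p was 0.0070 with array weights and 0.414 for the other probe set. With 1 rat left out it ranged from 0.0296 (without CVX-060 rat 5) to 0.187 (without vehicle rat 4). Cdkn1a was called in none of these fits. Without CVX-060 rat 5 and vehicle rat 2 the difference was 1.38, with an unadjusted limma p of 0.0123, the single member under 0.05 where 4.09% of all genes were, and an adjusted p of 0.999864, where 0.0% of all genes were called.

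Cdkn2c, which encodes the CDK4 and CDK6 inhibitor p18, had 7.99, 7.81, 7.77, 7.75 and 7.66 in CVX-060 rats 1 to 5, against 7.23, 7.73, 7.62, 7.78 and 7.69 in vehicle rats 1 to 5. Vehicle rat 1 was lowest and stood apart from the other 9 rats, and the difference was 0.19 (exact permutation p = 0.103). Wee1 had 7.43, 7.23, 6.14, 7.81 and 7.83 in CVX-060 rats 1 to 5, against 7.56, 7.42, 7.29, 7.85 and 8.03 in vehicle rats 1 to 5, with CVX-060 rat 3 far below the others and a difference of -0.34 (exact permutation p = 0.389). Over all 7 CDK inhibitor genes 3 were higher and 4 lower in CVX-060 livers, with a median of -0.01 (6 and 1 without CVX-060 rat 5 and vehicle rat 2), and Cdkn2a, the p16 and p19ARF gene, lay above background in no rat. The p53 response list had 8 of its 21 measured genes higher and 13 lower (median -0.04, against 0.01 over all genes). Without CVX-060 rat 5 and vehicle rat 2 it had 12 higher and 9 lower, with a median of 0.01. With all rats in the fit, Ccng1, cyclin G1, differed by 0.40 and Gdf15, a secreted stress factor, by -1.05 (exact permutation p = 0.23 and 0.357).

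The relation to Bmal1, a core gene of the circadian clock, was examined because its level in liver swings over the day. Bmal1 had 8.38, 8.75, 8.17, 5.75 and 5.21 in CVX-060 rats 1 to 5, against 7.90, 7.95, 5.13, 4.87 and 4.88 in vehicle rats 1 to 5. The rats fell into separate clusters of 5, at 4.87 to 5.75 and at 7.90 to 8.75, with a gap of 2.15 and no rat between. The lower cluster held vehicle rats 3, 4 and 5 and CVX-060 rats 4 and 5, all below background for Bmal1, so that treatment was spread over both but unevenly. Bmal1 itself was higher by 1.11 in CVX-060 livers (exact permutation p = 0.214) and by 2.07 without CVX-060 rat 5 and vehicle rat 2 (unadjusted limma p = 0.0364, adjusted p = 0.999864). Of 16 clock genes 4 were higher and 12 lower, led by the repressor genes Nr1d1 (-0.84, exact permutation p = 0.00794, groups not overlapping) and Nr1d2 (-0.59, 0.0635) and by Per3 (-1.14, 0.0397), none of them past adjustment. Correlations were kept to at least 6 rats, so that none is given within a cluster of 5, and a pooled one would mainly restate the gap. A slope on the Bmal1 level with a term for treatment was therefore fitted in limma, in log2 units per log2 unit of Bmal1. This slope too rests mainly on the gap, which is wider than the range within either cluster. The place of the lower cluster below background depended on the percentile, since at the 90th Bmal1 lay above background in all 10 rats.

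Over all genes 52 of 14216 were called at an adjusted p under 0.05 (0.366%), 30 with a positive slope (0.211%) and 22 with a negative one (0.155%). Of the 37 members Cdkn1a alone was called, with a slope of 0.48 (standard error 0.05, 95% interval 0.37 to 0.60, limma adjusted p = 0.0103). In the lower cluster Cdkn1a had 8.56 and 8.19 in CVX-060 rats 4 and 5, against 7.85, 7.14 and 8.12 in vehicle rats 3, 4 and 5. In the higher cluster it had 9.71, 10.01 and 9.51 in CVX-060 rats 1, 2 and 3, against 9.16 and 9.19 in vehicle rats 1 and 2. Within each cluster Cdkn1a rose with Bmal1, except that vehicle rat 5 lay above vehicle rat 3. In both clusters the vehicle rats had lower Bmal1 signals than the CVX-060 rats, and the order within clusters was not tested. The clock output gene Dbp, which runs opposite to Bmal1 and lay above background in all 10 rats, had 6.12, 5.84, 5.91, 9.33 and 9.86 in CVX-060 rats 1 to 5, against 7.01, 6.76, 9.62, 10.04 and 9.88 in vehicle rats 1 to 5.

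A second Cdkn1a probe set, which was not used above, lay above background in 6 of 10 rats. It gave 6.83, 6.95, 6.44, 5.34 and 5.55 in CVX-060 rats 1 to 5, against 7.11, 6.28, 5.42, 5.14 and 5.32 in vehicle rats 1 to 5, and a slope of 0.45 (limma, not adjusted). With the Bmal1 level in the model, the difference of Cdkn1a between CVX-060 and vehicle was 0.37, against 0.91 without it. The slope kept its size without CVX-060 rat 5 (0.48) and without both CVX-060 rat 5 and vehicle rat 2 (0.48). Its adjusted p became 0.0632 and 0.106, where 1 gene and 5 genes (0.0352%) were still called.

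**Figure D5:**
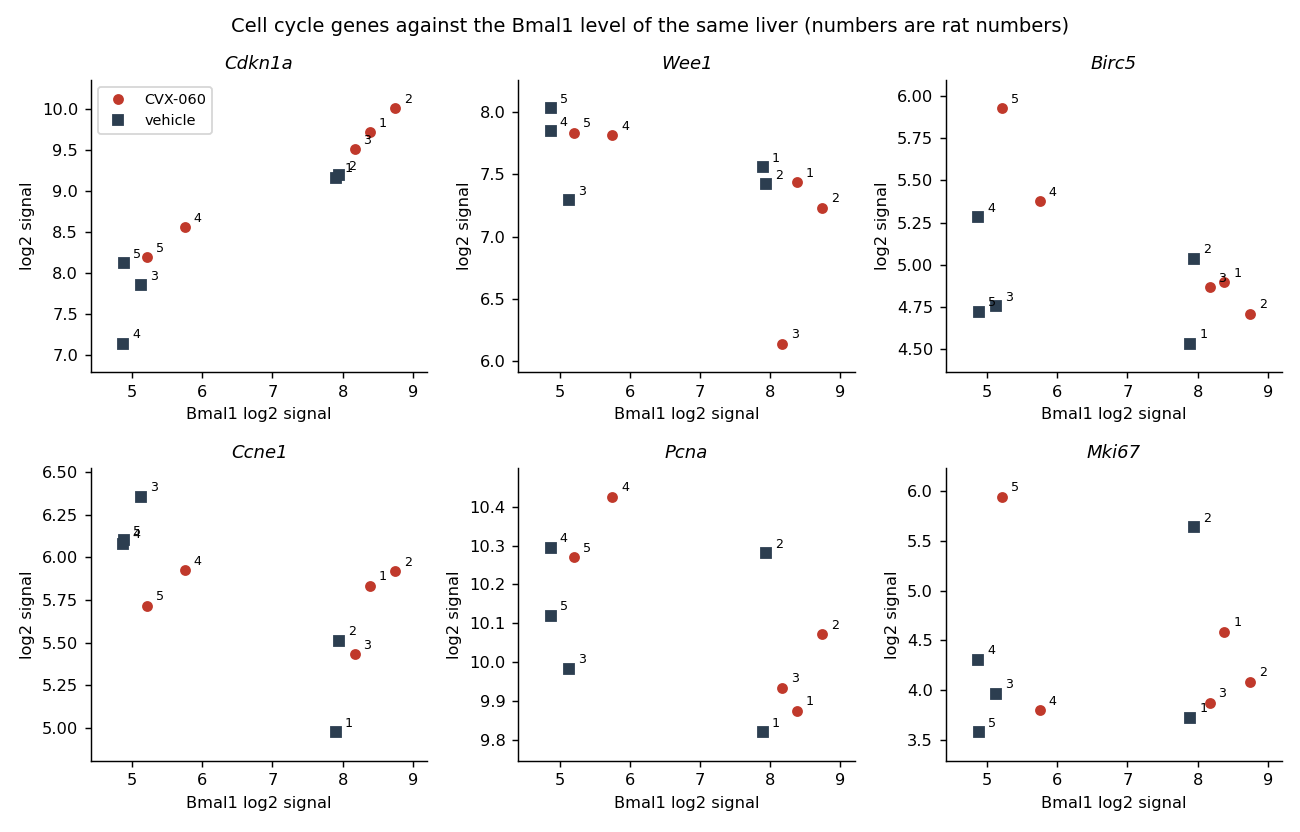
Log2 signal of 6 members against the log2 signal of Bmal1 in the same liver, with CVX-060 rats as circles and vehicle rats as squares, each with its rat number. Cdkn1a ends at 8.56 in the lower cluster of Bmal1 signals, which lie below background, and reaches 10.01 in the higher one, whereas Mki67 is high in CVX-060 rat 5 and vehicle rat 2, which lie in different clusters.

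The other members did not pass the adjusted threshold. Slopes were negative in 27 of 37 members, against 50.3% of all genes, and an unadjusted p under 0.05 was reached by 3 members, against 12.6% of all genes. After Cdkn1a the smallest p were those of Birc5 (-0.17, limma adjusted p = 0.287), Ccne1 (-0.16, 0.369) and Wee1 (-0.18, 0.461). Wee1 is known to be driven by clock factors in mouse liver, and its other probe set had a slope of -0.19. In the mitosis list 14 of 19 slopes were negative with a median of -0.04, and Mki67 had a slope of -0.02 (95% interval -0.40 to 0.36). All 5 G1/S slopes were negative, with a median of -0.07, and 6 of 10 replication slopes, with a median of -0.03. Without CVX-060 rat 5 and vehicle rat 2 the G1/S slopes were again all negative, with a median of -0.15 and 3 of 5 under an unadjusted p of 0.05 but none called, and the mitosis slopes split 9 positive against 10 negative. The slopes of the 7 cholangiocyte markers were negative as well (median -0.15, none called), and their part in the G1/S slopes was not tested.

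These directions also rested on the livers that stood apart. Without CVX-060 rat 5, 16 members changed sign and 26 were positive. Without both CVX-060 rat 5 and vehicle rat 2, 13 of 37 were positive, against 50.1% of all genes, and 7 had an unadjusted p under 0.05, against 14.2% of all genes. The Bmal1 levels of CVX-060 rat 5 (5.21) and vehicle rat 2 (7.95) lay in different clusters, so that the high mitosis scores of these livers did not go with 1 Bmal1 level. The E-box letters stood in the promoter of Mcm2 alone among the 29 members with a promoter (6.42% of all promoters), and the promoter of Cdkn1a held none of the letters searched.

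Genes of the p53 response had slopes of both signs. Of 21 measured genes 14 had a positive and 7 a negative slope, with a median of 0.06, and besides Cdkn1a the single call was Ccng1, which ran the other way with -0.26 (standard error 0.04, limma adjusted p = 0.0321). Ccng1 had 8.82, 8.58, 9.07, 9.72 and 9.70 in CVX-060 rats 1 to 5, against 8.27, 8.51, 9.14, 8.78 and 9.19 in vehicle rats 1 to 5. Without CVX-060 rat 5 and vehicle rat 2 its adjusted p was 0.112. Positive slopes that did not pass were those of Sesn2 (0.24, adjusted p = 0.145), Gadd45a (0.37, 0.186) and the apoptosis gene Bbc3 (0.29, 0.216). Of the 7 CDK inhibitor genes Cdkn1a alone was called, and of 30 other replication genes, 38 other mitosis genes and 20 other G1 regulators none was. The closest was Fen1, the flap endonuclease gene, with -0.30 (adjusted p = 0.0842). Among 15 clock genes tested 4 were called, Dbp (-1.11) and Per3 (-0.36) with negative and Nfil3 (0.26) and Clock (0.24) with positive slopes.

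With the level of Dbp in place of that of Bmal1, a choice made after seeing the data, 58 of 14215 genes were called (0.408%). Cdkn1a was the single member, with a slope of -0.43 (limma adjusted p = 0.0108). Dbp had a slope of -1.11 on Bmal1 and split the rats into the same clusters. This fit therefore restates the same contrast and is not a separate result. The hour at which each rat was killed is not given, so that the part of the time of day in the Cdkn1a levels was not tested.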

How the data were processed

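Liver RNA of 10 rats was measured on 1 array per rat. The authors deposited log2 signals per probe set that were already normalized. Tools listed by the submitters, with no role stated, were limma 3.38.2, affy 1.56.0 and R 3.4.0. How background was corrected and probes were summarized is not given in the sources used here. Genes were read from the platform annotation, with 1 single-symbol probe set per gene (highest variance over 10 arrays). Of 31099 probe sets, 20826 carried 1 symbol (9780 none, 436 several, 57 controls). Groups were compared with limma 3.58.1 in R 4.3.3 (lmFit and eBayes, Benjamini-Hochberg adjustment over all 14217 genes), and single genes also with exact two-sided permutation tests, whose smallest possible p here is 0.0079. The limma p-values set a difference or slope against the spread between these rats, which limma moderates over all genes. The number of arrays limits the precision. The group fit and the slope fit (Bmal1 level plus a treatment term, 14216 genes) were tested on simulated data. Each gene was drawn independently there, with no liver that stood apart, so that the test does not cover such livers. Values in every rat were given by rule for 11 chosen members (Rrm2 was not measured), the 6 members of smallest p between groups, the 4 of largest SD and the 4 of smallest p on Bmal1, and differences for the 3 genes of smallest p in each other list. The members and gene lists were chosen with earlier results of these data known. Alternatives changed the probe set rule, low-signal filter, normalization, array weights, variance prior, covariates, background percentile and rats included.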

Additional observations from a re-analysis of the deposited data

Results flagged for a closer look

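A liver far from the other 4 of its group, by Dixon's ratio of gap to range, was found for 14 of 74 combinations of member and group. Of these, 10 were CVX-060 rat 5 and 2 were vehicle rat 2, 11 lay in the CVX-060 group and 3 in the vehicle group. Chance alone gives about 1 in 20 groups, and over all genes the share was 6.19% in CVX-060 livers and 7.32% in vehicle livers. Genes of 1 list that move together are not independent of each other.

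CVX-060 rat 5 stood above its group in the cyclins Ccna2 (5.93, others 3.46 to 3.87), Ccnb1 (6.42, others 4.86 to 5.17) and Ccnb2 (7.02, others 5.01 to 5.56). It did so in the phosphatase gene Cdkn3 (8.13, others 4.87 to 5.70), in the anaphase genes Cdc20 (6.53, others 5.20 to 5.26) and Ube2c (6.93, others 5.18 to 5.54) and in the checkpoint gene Bub1b (4.77, others 4.08 to 4.21), although Bub1b lay above background in no rat. The spindle genes Nusap1 (7.07, others 5.81 to 6.14) and Kif11 (5.49, others 4.55 to 4.79) and the helicase gene Mcm6 (6.38, others 5.46 to 5.71) completed this set. Vehicle rat 2 stood above its group in Cdc20 (6.75, others 5.03 to 5.22) and Ube2c (6.46, others 5.25 to 5.60).

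The remaining members set apart were Ccne2 in CVX-060 rat 4 (6.33, others 5.51 to 5.67), an E-type cyclin gene, and Cdkn2c in vehicle rat 1 (7.23, others 7.62 to 7.78). Of 8 combinations of score and group, 3 had a distant liver. They were the mitosis score of CVX-060 rat 5 (1.11, others -0.30 to 0.03), the replication score of the same liver (0.30, others -0.12 to -0.05) and the G1/S score of vehicle rat 1 (-0.54, others -0.00 to 0.20). The cause of these departures was not tested.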

How the results depend on the processing

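Over all alternatives 1356 of 1362 member values were counted as kept, 4 as moved and 2 as weaker. A value was kept if it moved by less than 1 SD, so that a kept value could still change sign. Without CVX-060 rat 5 the differences of 15 of the 37 members between CVX-060 and vehicle changed sign. The Cdkn1a slope was instead kept if its adjusted p stayed under 0.05, whatever its size or sign. Slopes on Dbp were counted against slopes on Bmal1, although they are not the same quantity, so the count is only a rough guide. The slope on Bmal1 was called in 52 genes, in 84 with array weights, in 26 with no term for CVX-060 and in 5 without CVX-060 rat 5 and vehicle rat 2. Leaving out 1 rat at a time gave 1 (without CVX-060 rat 5) to 320 (without vehicle rat 2). Members called numbered 0 without both rats and 0 to 1 with 1 rat left out, and the adjusted p of Cdkn1a was 0.106 without both and 0.00439 to 0.0632 with 1 rat left out. Members above background in every rat numbered 21 at the 90th and 5 at the 99th percentile, against 11 at the 95th. Genes with an unadjusted p under 0.05 between CVX-060 and vehicle numbered 347, with 156 after a filter on low signal, 557 of 20826 over every probe set, 686 with array weights, 816 with Bmal1 as a covariate, 713 without vehicle rat 2 and 581 without both rats, and no gene was called in any of these fits. For the slope they numbered 1794, and 2970 without vehicle rat 2. The difference of Cdkn1a was 1.41 with array weights. The cause of these shifts was not tested.

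Over the 2000 most variable genes, correlations of same-numbered rats were 0.09, -0.19, 0.14, 0.06 and -0.17. They gave no sign that replicate numbers pair the rats, but do not exclude pairing for single genes. With the replicate block 0 genes were called and 389 had an unadjusted p under 0.05. The Cdkn1a difference was 0.91 in that fit too, with an unadjusted limma p of 0.0070. Signals near background and 5 rats per group limit what could be detected.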

Other observations

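Among markers of other liver cells none passed adjustment between CVX-060 and vehicle. All 9 endothelial markers were higher in CVX-060 livers, with a median difference of 0.24 and the smallest p for Lyve1, a receptor of sinusoidal endothelium, at 0.44 (exact permutation p = 0.0159). Of 11 macrophage markers 10 were higher, with a median of 0.24 and C1qc, a complement component, at 0.32. Of 11 stellate cell markers 9 were higher (median 0.14), and of 9 hepatocyte markers 5 (median 0.00), where the median over all genes was 0.01.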
